A study of Mus musculus with 42 samples.

Results

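The 10 genes described here belong to the amino acid response and to mitochondrial one-carbon metabolism, and they were followed in mouse cerebellum under intermittent fasting and refeeding. They are Atf4, Ddit3, Trib3, Asns, Sesn2, Phgdh, Psat1, Shmt2, Mthfd2 and Mthfd1l. The genes were chosen by name for their roles, and matched on the gene name in both deposited count tables, from the 35275 genes that each table lists. All 10 were found and passed the filter on low counts in both tables. The choice was made with earlier results from all 6 groups known. Levels, differences and p-values below therefore describe these genes and place them among all genes tested, and support nothing further.

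The libraries are bulk RNA-seq of frozen cerebellum from male mice, labelled as strain C57BL/6 and in the design text as C57/BL6NTac. From 3 to 6 months of age the mice had food at all times (ad libitum, AL), fasted 16 h each day (IF16), or fasted 24 h on alternate days (every other day, EOD). IF16 mice were given food at 7 am and lost it at 3 pm, and EOD mice had their food supplied or withdrawn at 7 am. The refed groups, written AL-R, IF16-R and EOD-R, went through the same 3 months, were then fed freely for 2 months, and were 8 months old when tissue was taken. The AL groups included, all mice drank freely and were raised on a standard rodent diet, and the labels name no allele or drug. Each of the 6 groups has 5 libraries, 30 in all, and the hour of collection relative to feeding is not given in the sources used here.

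A cell short of amino acids senses uncharged tRNA through the kinase GCN2, which phosphorylates the translation factor eIF2. Most protein synthesis then slows, while translation of the ATF4 mRNA rises, so ATF4 activity is set largely at the level of translation. ATF4 switches on genes for amino acid synthesis and uptake, and with them enzymes that make serine and pass its carbon to folate. Serine is split to glycine in mitochondria by SHMT2. The carbon released is oxidised by MTHFD2 and leaves the mitochondrion as formate, made by MTHFD1L, for purine, thymidylate and methyl group synthesis. In brain, serine synthesis from glucose through PHGDH takes place mainly in astrocytes and radial glia such as Bergmann glia, and it supplies neurons with L-serine.

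Promoter windows of 300 bases, from 250 before to 50 after the start site, were taken from RefSeq on the build GRCm38.p6, and all 10 genes matched. The motif TGATGNAA, the core shape of the element that C/EBP and ATF factors bind in amino acid response genes, was searched on both strands. It occurred in 3.97% of the 32851 promoters and in 2 of the 11 promoters of the 10 genes. In Asns it lay at bases -23 to -16 from the start site on the gene's own strand, and in Trib3 at bases 15 to 22 on the opposite strand. These start sites are those of RefSeq, and the deposited annotation differs. Asns starts there at 7693254 and not 7693209, so its match lies inside the deposited gene. Trib3 starts there at 152344032 and not 152344060, so its match lies before the deposited start. Both Psat1 windows lie inside the deposited gene. The 250 bases before the RefSeq start of Asns are printed because they hold one of these matches. Those of Mthfd1l are printed because this gene differed most in the fasted groups and had no match in its window. Asns lies at chr6:7693210-7693459 on the minus strand and Mthfd1l at chr10:3972825-3973074 on the plus strand. Both stretches are on GRCm38.p6 and read 5′ to 3′ in the direction of the gene, and capitals mark the motif.
Asns: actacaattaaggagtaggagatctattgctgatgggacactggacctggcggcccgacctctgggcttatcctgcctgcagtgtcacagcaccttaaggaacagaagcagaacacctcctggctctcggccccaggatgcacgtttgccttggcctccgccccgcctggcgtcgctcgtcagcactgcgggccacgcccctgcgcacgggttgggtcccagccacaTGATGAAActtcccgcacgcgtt
Mthfd1l: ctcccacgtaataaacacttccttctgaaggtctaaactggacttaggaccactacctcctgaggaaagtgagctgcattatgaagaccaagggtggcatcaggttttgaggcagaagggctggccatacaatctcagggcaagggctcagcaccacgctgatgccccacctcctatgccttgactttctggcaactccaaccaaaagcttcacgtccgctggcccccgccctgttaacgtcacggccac
The whole 300-base promoter of Asns, which runs 50 bases past the stretch above, had 20 CpG sites and a G and C content of 61.7%. The 300-base promoter of Mthfd1l had 8 CpG sites and 55.3%, beside a median of 52.7% over all promoters.

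Total counts per library ran from 26799825 to 36167435. At the end of the regimens, 4 libraries stood apart by their length gradient, the slope of a library's log2 CPM on log2 gene length. AL replicates 4 and 5 and IF16 replicate 1 had gradients of -0.158, -0.106 and -0.115, short genes being relatively high, and EOD replicate 4 had 0.141. The dissections also differed in choroid plexus, whose main transcript Ttr ranged from 7.83 to 4104 CPM. Markers of 8 cell types (59 genes) were all present in the tables. The lowest group mean of any marker was 0.62 CPM, so none was at 0, and all granule cell and Purkinje cell markers, which define cerebellum, were detected.

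In the deposited annotation (mm10 per the submitters' processing notes) all 10 are protein-coding. Mthfd1l spans chr10:3973118-4167081 on the plus strand. Shmt2 (chr10:127517123-127522444, minus) and Ddit3 (chr10:127290774-127296288, plus) lie on the same chromosome. Asns (chr6:7675169-7693254) and Mthfd2 (chr6:83305691-83317606) are both on the minus strand of chromosome 6. Phgdh lies at chr3:98313170-98339990, Psat1 at chr19:15904678-15947337, Sesn2 at chr4:132492032-132510501 and Trib3 at chr2:152337422-152344032, all on the minus strand, and Atf4 at chr15:80255184-80257540 on the plus strand.

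Per unit of gene length, Atf4 was the most abundant of the 10 and Trib3 the least. Levels between genes are given in the authors' FPKM as the mean ± SD over the 30 libraries. Atf4, the transcription factor of the response, had 74.7 ± 5.19 FPKM, above 96.1% of protein-coding genes. Ddit3, its stress-induced partner CHOP, followed at 35.9 ± 6.08. The serine synthesis enzymes Psat1 and Phgdh had 33.5 ± 3.15 and 30.9 ± 4.59 FPKM, and Asns, asparagine synthetase, had 30.9 ± 2.22. The ranges of these 4 genes overlapped, from 25.9 to 54.8 FPKM. Ranges over the 30 libraries cannot settle an order within each library, which was not tested for these 4 genes. Shmt2 stood below them at 18.2 ± 1.36 FPKM, with a highest library of 21.1. Mthfd1l had 6.59 ± 0.813 FPKM, Mthfd2 5.3 ± 0.724 and Sesn2, a leucine-sensing inhibitor of mTORC1, 5.04 ± 0.404. These ranges overlapped too, with the same limit on their order. Trib3, a pseudokinase that ATF4 induces strongly under stress, was listed at 0.628 ± 0.126 FPKM and rested on only 29 to 68 counts per library.

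**Figure D1:**
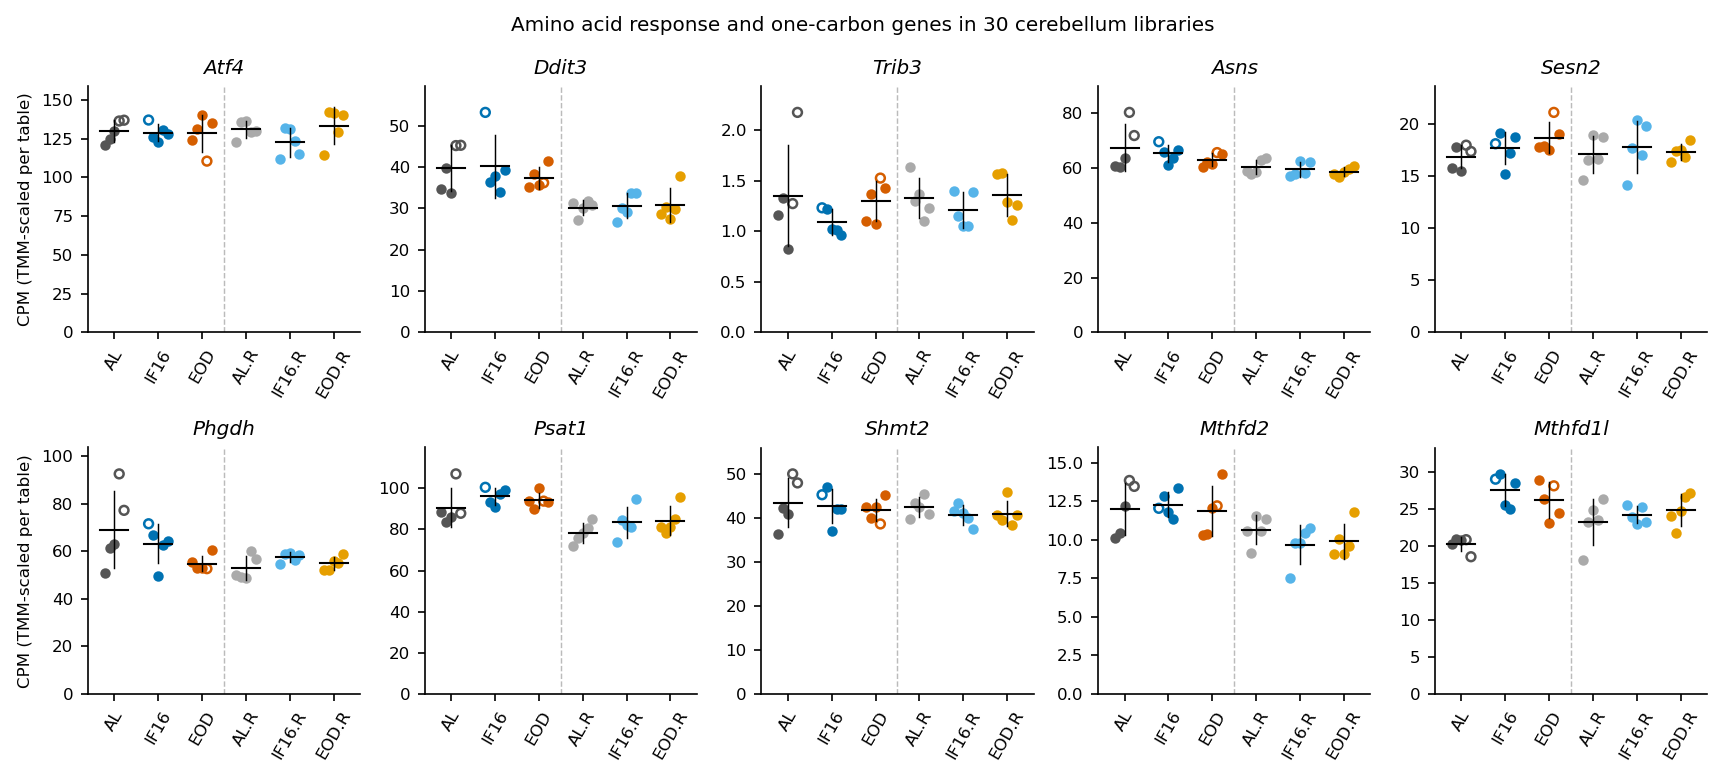
CPM of each gene in every library (points), with the group mean (bar) and SD (line), for the 3 regimen groups left of the dashed line and the 3 refed groups right of it. Open circles are the 4 libraries with a length gradient beyond 0.1. All IF16 and EOD libraries lie above all AL libraries for Mthfd1l, and for the other 9 genes the 3 regimen groups overlap.

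Mthfd1l, the mitochondrial enzyme that makes formate, was higher in both fasted groups. CPM here is scaled by TMM within each table. The 5 AL libraries held 20.3, 20.8, 20.7, 20.8 and 18.5 CPM. The IF16 libraries held 29.0, 29.7, 25.4, 25.0 and 28.5 CPM. The EOD libraries held 28.9, 26.4, 23.1, 28.1 and 24.4 CPM. The lowest fasted library, at 23.1 CPM, was above the highest AL library, so neither fasted group overlapped AL, while IF16 and EOD overlapped each other. Mthfd1l rose in IF16 by 0.44 on the log2 scale (SE 0.076, 95% interval 0.28 to 0.60, 1.36-fold, edgeR adjusted p = 0.0474, n = 5 per group). In EOD the log2 difference was 0.37 (SE 0.0763, interval 0.21 to 0.53, 1.29-fold), and its edgeR adjusted p of 0.121 did not pass the threshold of 0.05. EOD against IF16 gave -0.07 (interval -0.23 to 0.09). In bulk tissue a higher level per cell and more cells of a type that expresses the gene cannot be told apart.

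The adjusted p of Mthfd1l in IF16 lay close to the threshold. The size of the difference stayed between 0.40 and 0.48 under the 11 alternatives and the 10 fits without a library. Its adjusted p was 0.0607 to 0.157 when libraries were left out one at a time, so the call was lost in all 10 of these fits, and it was 0.164 without the 4 libraries that stood apart. DESeq2 gave an adjusted p of 5.13e-05 for Mthfd1l in IF16 and 0.00295 in EOD, but it also called 94 and 133 genes in those comparisons. Without the 4 libraries, Mthfd1l averaged 20.6 ± 0.294 CPM in AL (SD, n = 3), 27.1 ± 2.3 in IF16 (n = 4) and 25.7 ± 2.52 in EOD (n = 4).

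Neither of the other 2 mitochondrial one-carbon enzymes passed the threshold. Shmt2, which splits serine, averaged 43.6 ± 5.51 CPM in AL (SD, n = 5, as in each group), 42.8 ± 3.82 under IF16 and 41.8 ± 2.53 under EOD. Its log2 differences from AL were -0.03 in IF16 (interval -0.21 to 0.16) and -0.06 in EOD (interval -0.24 to 0.13). Mthfd2, the mitochondrial dehydrogenase and cyclohydrolase of the same route, averaged 12 ± 1.71 CPM in AL, 12.3 ± 0.798 under IF16 and 11.9 ± 1.63 under EOD. Its differences were 0.03 (interval -0.20 to 0.26) and -0.02 (interval -0.25 to 0.21). For both genes these intervals lie below the 0.37 and 0.44 of Mthfd1l, although the difference between genes itself was not tested. Shmt2 overlaps Ndufa4l2 on the opposite strand. The handling of strand is not given in the sources used here, so counts of this pair may be affected by the overlap.

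Of the serine synthesis enzymes, Phgdh, which commits glucose carbon to serine, was the more variable. The AL libraries held 50.7, 61.2, 63.1, 92.5 and 77.1 CPM. The IF16 libraries held 71.5, 66.9, 49.7, 62.7 and 64.3 CPM. The EOD libraries held 55.4, 52.7, 52.8, 52.6 and 60.3 CPM. EOD was narrow and low, the 2 highest AL libraries were those with the steepest negative length gradient, and the groups overlapped. The log2 difference of EOD from AL was -0.33 (SE 0.131, interval -0.61 to -0.05, unadjusted p = 0.0221 and adjusted p = 0.321 by edgeR). Without the 4 libraries that stood apart it was -0.079, with group means of 58.3 ± 6.66 CPM in AL (n = 3) and 55.3 ± 3.54 in EOD (n = 4). The mean log2(CPM + 1) of the 10 astrocyte and Bergmann glia markers ran from 7.98 to 8.08 in AL and from 7.99 to 8.22 in EOD, so these ranges overlapped.

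Psat1, the transaminase that follows Phgdh, held 88.4, 83.8, 86.2, 107 and 87.9 CPM in AL. It held 100.5, 93.2, 90.7, 97.1 and 99.0 CPM in IF16 and 94.0, 89.95, 100.1, 93.8 and 93.2 CPM in EOD. All fasted libraries were above 4 of the 5 AL libraries and below the remaining one, AL replicate 4. The log2 differences were 0.08 in IF16 (interval -0.06 to 0.23) and 0.06 in EOD (interval -0.09 to 0.20). Without the 4 libraries that stood apart they were 0.14 and 0.13, with unadjusted p-values of 0.0299 and 0.0439 and adjusted p-values of 0.503 and 0.661 by edgeR.

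None of the transcription factors and direct response genes passed the threshold under fasting. Atf4 had 120.5, 124.6, 130.1, 136.3 and 136.8 CPM in AL, 122.6 to 136.9 in IF16 and 110.4 to 140.2 in EOD. Its log2 differences from AL were -0.0098 in IF16 (interval -0.15 to 0.13) and -0.016 in EOD (interval -0.16 to 0.13), or 0.90 to 1.10-fold and 0.896 to 1.09-fold. Atf4 is controlled through translation, and mRNA level does not measure that step. Ddit3 averaged 39.7 ± 5.50 CPM in AL, 40.1 ± 7.57 under IF16 and 37.4 ± 2.62 under EOD. IF16 replicate 1, a library with a steep gradient, was the highest at 53.2. Ddit3 overlaps Mars, the methionyl-tRNA synthetase gene, and Gm4189 on the opposite strand, so its counts may also be affected.

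Asns, a classic ATF4 target, averaged 67.4 ± 8.57 CPM in AL, 65.4 ± 3.17 under IF16 and 63.0 ± 2.31 under EOD. The interval of its log2 difference was -0.20 to 0.12 in IF16 and -0.26 to 0.06 in EOD. Sesn2 averaged 16.9 ± 1.14, 17.7 ± 1.55 and 18.6 ± 1.48 CPM in AL, IF16 and EOD. Its largest difference was 0.15 in EOD (interval -0.02 to 0.31, unadjusted p = 0.0861 by edgeR). Trib3 averaged 1.35 ± 0.50 CPM in AL, 1.09 ± 0.126 under IF16 and 1.30 ± 0.201 under EOD. Its intervals of -0.75 to 0.14 in IF16 and -0.49 to 0.39 in EOD were the widest of the 10. AL replicate 5, at 2.18 CPM, was the highest library of Trib3, and the other AL libraries held 0.828 to 1.33. Without it the Trib3 difference in IF16 was -0.075 in place of -0.31.

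**Figure D2:**
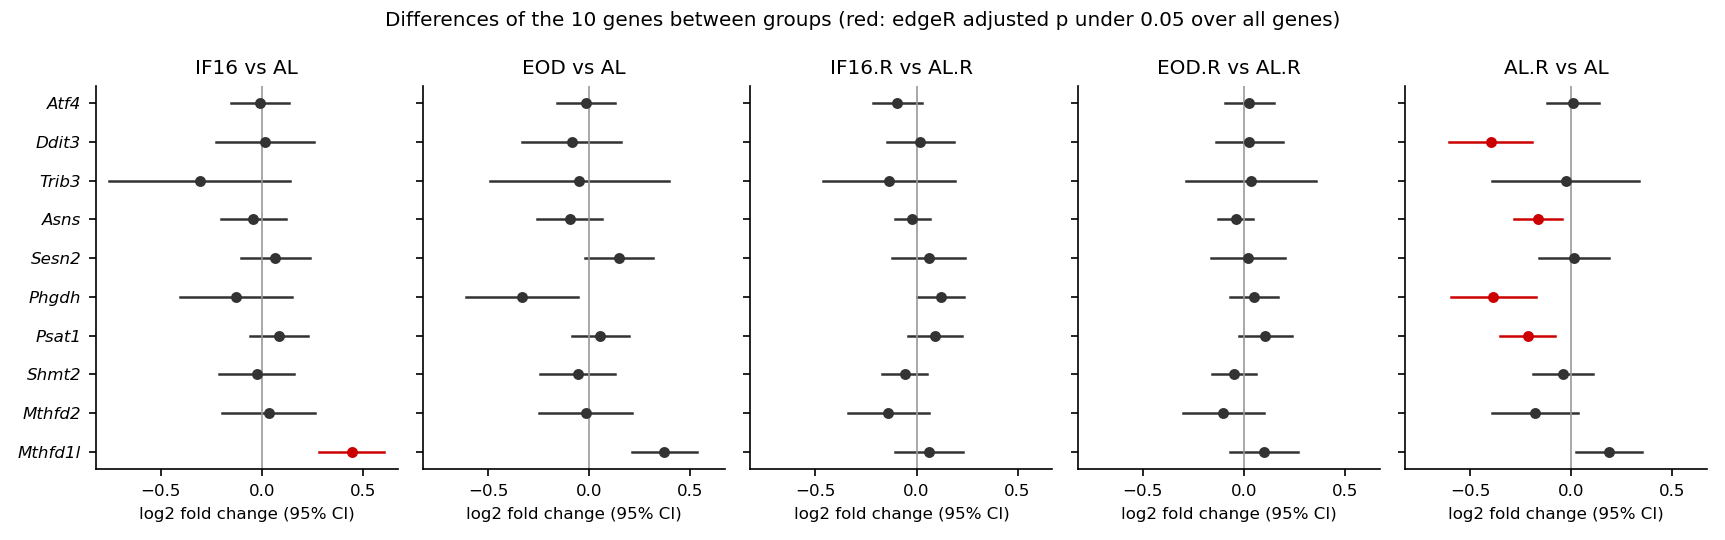
Log2 fold change of each gene (point) with its 95% interval (line) from edgeR in 5 comparisons, red where the adjusted p over all genes was under 0.05. Mthfd1l stands apart in IF16 and EOD against AL, no gene is red in the refed comparisons, and 4 genes are red and lower in AL-R against AL.

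Counted over the 10 genes, 1 was called in IF16 against AL (Mthfd1l), where 0.0483% of 16577 genes were called. None of the 10 was called in EOD against AL, where 0.0664% of all genes were called, or in EOD against IF16, where 0% were. At an unadjusted p under 0.05 by edgeR the counts were 1 of 10 in IF16 against AL beside 9.92% of all genes, 2 of 10 in EOD against AL beside 14.4%, and 0 of 10 in EOD against IF16 beside 3.62%. Those shares are near the background of each comparison. Groups did not overlap for 1 of 10 genes in IF16 against AL, where 1.55% of all genes had no overlap, and for 1 of 10 in EOD against AL, where 2.9% had none. Both were Mthfd1l. The median log2 difference of the 10 genes was 0.0030 in IF16 and -0.033 in EOD, against -0.0062 and -0.018 over all genes. Their median absolute difference was 0.055 in IF16 and 0.072 in EOD, and that of all genes was 0.11 and 0.14. IF16 and EOD share the AL libraries, so the 2 sets of values are not independent.

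After refeeding, none of the 10 genes differed between groups past the threshold. Mthfd1l held 18.1, 23.1, 24.8, 23.4 and 26.3 CPM in AL-R, 25.5, 23.8, 23.0, 25.2 and 23.2 under IF16-R, and 24.0, 21.7, 24.7, 26.6 and 27.1 under EOD-R. The 3 refed groups overlapped. Its log2 differences from AL-R were 0.06 in IF16-R (interval -0.11 to 0.23) and 0.10 in EOD-R (interval -0.07 to 0.27). Phgdh had the smallest unadjusted p of the 10 in IF16-R, averaging 52.9 ± 5.15 CPM in AL-R against 57.5 ± 2.05 under IF16-R. That log2 difference was 0.12 (interval 0.0017 to 0.24, unadjusted p = 0.0472 and adjusted p = 0.518 by edgeR). The astrocyte and Bergmann glia markers were also higher there, with a mean log2(CPM + 1) of 7.96 to 8.08 in AL-R and 8.08 to 8.19 in IF16-R (two-sided exact permutation p = 0.0159, n = 5 per group), and so was the length gradient (two-sided exact permutation p = 0.00794, the lowest possible with 5 against 5). With the length gradient as a covariate the Phgdh difference was 0.18 (unadjusted p = 0.0537, edgeR adjusted p = 0.999). The gradients ran from -0.0261 to -0.0042 in AL-R and from 0.00506 to 0.0427 in IF16-R. They did not overlap, so this fit separates group from gradient poorly. The part of the glial markers in the Phgdh difference was not tested.

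Of the remaining genes after refeeding, Psat1 differed from AL-R by 0.09 in IF16-R and 0.11 in EOD-R, and Mthfd2 by -0.14 and -0.10, with intervals that included 0. Atf4 averaged 131 ± 5.44 CPM in AL-R, 122 ± 9.27 under IF16-R and 133 ± 11.9 under EOD-R, and EOD-R against IF16-R gave 0.12 (interval -0.00025 to 0.24). The 95% intervals of all 10 genes in EOD-R against AL-R lay between -0.30 and 0.36. The share of all 16444 genes called was 0.17% in IF16-R against AL-R, 0.0426% in EOD-R against AL-R and 0.0182% in EOD-R against IF16-R. At an unadjusted p under 0.05 by edgeR the 10 genes gave 1, 0 and 0 in these comparisons, beside 9.58%, 8.5% and 9.75% of all genes.

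Whether a fasting difference had changed by the end of refeeding was tested in 1 fit of all 30 libraries. The interaction is the refed difference minus the regimen difference. For Mthfd1l it was -0.38 for IF16 (SE 0.113, interval -0.61 to -0.15, unadjusted p = 0.00219, adjusted p = 0.415) and -0.27 for EOD (SE 0.113, interval -0.50 to -0.04, unadjusted p = 0.0218, adjusted p = 0.466), by edgeR. Phgdh gave 0.38 for EOD (SE 0.146, interval 0.08 to 0.68, unadjusted p = 0.0151, adjusted p = 0.462 by edgeR), and 0.13 without the 4 libraries that stood apart. None of the 10 passed the adjusted threshold, where 0.0474% of 16877 genes were called for IF16 and 0.0119% for EOD. At an unadjusted p under 0.05, 1 of 10 was counted for IF16 beside 7.21% of all genes, and 2 of 10 for EOD beside 10.3%. The unadjusted p of Mthfd1l for IF16 was under 0.05 in 20 of 20 fits without a library and in 10 of 10 other settings. For EOD it was so in 18 of 20 and 9 of 10, and no adjusted p in these fits was under 0.05. So, after adjustment over all genes, the smaller Mthfd1l difference after refeeding was not shown to differ from that at the end of the regimens.

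More genes were called between the controls of the 2 collections than in any of the other 8 comparisons. AL-R mice were 8 months old and AL mice 6 months, and their libraries are in separate tables, so age and table cannot be told apart. Of the 10 genes, 4 were lower in AL-R at an adjusted p under 0.05 and none higher. Of all 16877 genes, 23.9% were called, 1936 higher and 2094 lower. Ddit3 fell by 0.40 on the log2 scale (SE 0.101, edgeR adjusted p = 0.0102). It held 34.7, 39.6, 33.8, 45.2 and 45.3 CPM in AL and 31.4, 27.1, 30.01, 31.7 and 30.8 in AL-R, with no overlap, as 10% of all genes had none. Mars, which overlaps Ddit3, averaged 73.9 ± 2.01 CPM in AL and 73.5 ± 2.01 in AL-R. Phgdh fell by 0.38 (SE 0.103, edgeR adjusted p = 0.0127), Psat1 by 0.22 (SE 0.0659, edgeR adjusted p = 0.0223) and Asns by 0.16 (SE 0.0583, edgeR adjusted p = 0.042), all with overlap.

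Atf4 itself gave 0.0087 between the control groups (interval -0.12 to 0.14), Shmt2 -0.04 (interval -0.19 to 0.11) and Sesn2 0.013 (interval -0.16 to 0.19). Mthfd1l gave 0.19 (interval 0.025 to 0.35, edgeR adjusted p = 0.0797), Mthfd2 -0.18 and Trib3 -0.026, and none of these passed the threshold. Without the 4 libraries that stood apart, none of the 10 was called, 405 genes were called in place of 4030, and the log2 differences were -0.27 for Ddit3, -0.15 for Phgdh, -0.15 for Psat1 and -0.04 for Asns. With AL replicate 4 alone left out, 1 of the 4 was still called, and without AL replicate 5, AL-R replicate 2 or AL-R replicate 3, 2 were. The mean log2(CPM + 1) of the 7 oligodendrocyte markers was 8.51 to 8.87 in AL (group mean 8.65) and 8.33 to 8.48 in AL-R (group mean 8.41). That of the 11 choroid plexus markers was 2.19 to 5.58 in AL and 2.17 to 5.18 in AL-R. The choroid plexus ranges overlapped, but the group means were 4.56 and 2.96. The median log2 difference of these 11 markers was -1.44. None of the 11 was called (lowest edgeR adjusted p = 0.104), so a difference in choroid plexus content between the 2 control groups was not shown. With the choroid plexus marker mean as a covariate, the differences were -0.41 for Ddit3, -0.35 for Phgdh, -0.25 for Psat1 and -0.16 for Asns, of which Ddit3 and Psat1 were called. The part of the oligodendrocyte markers was not tested.

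Between libraries of one group, most of the 10 genes moved with the length gradient at the end of the regimens. Deviations of log2(CPM + 1) from group means gave a Pearson r with the gradient of -0.88 for Shmt2, -0.83 for Phgdh, -0.82 for Atf4, -0.74 for Ddit3 and -0.71 for Asns over the 15 libraries. For Psat1 r was -0.60, for Mthfd2 -0.53, for Trib3 -0.32, for Sesn2 -0.22 and for Mthfd1l 0.11. Without the 4 libraries that stood apart, r over the other 11 was -0.88 for Shmt2, -0.71 for Phgdh, -0.58 for Atf4 and -0.58 for Asns. It was -0.095 for Ddit3, -0.14 for Psat1, -0.13 for Trib3, -0.55 for Sesn2, -0.66 for Mthfd2 and 0.019 for Mthfd1l. The values of Ddit3 and Psat1 therefore rested on those 4 libraries. Without them that of Trib3 was weaker, and those of Sesn2 and Mthfd2 were stronger. These correlations describe libraries that share depth and composition effects, and no test was made of them. How many of all genes moved with the gradient was not counted. In the refeeding libraries, whose gradients spanned -0.0265 to 0.0427, the strongest r with the gradient was -0.55, for Shmt2.

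**Figure D3:**
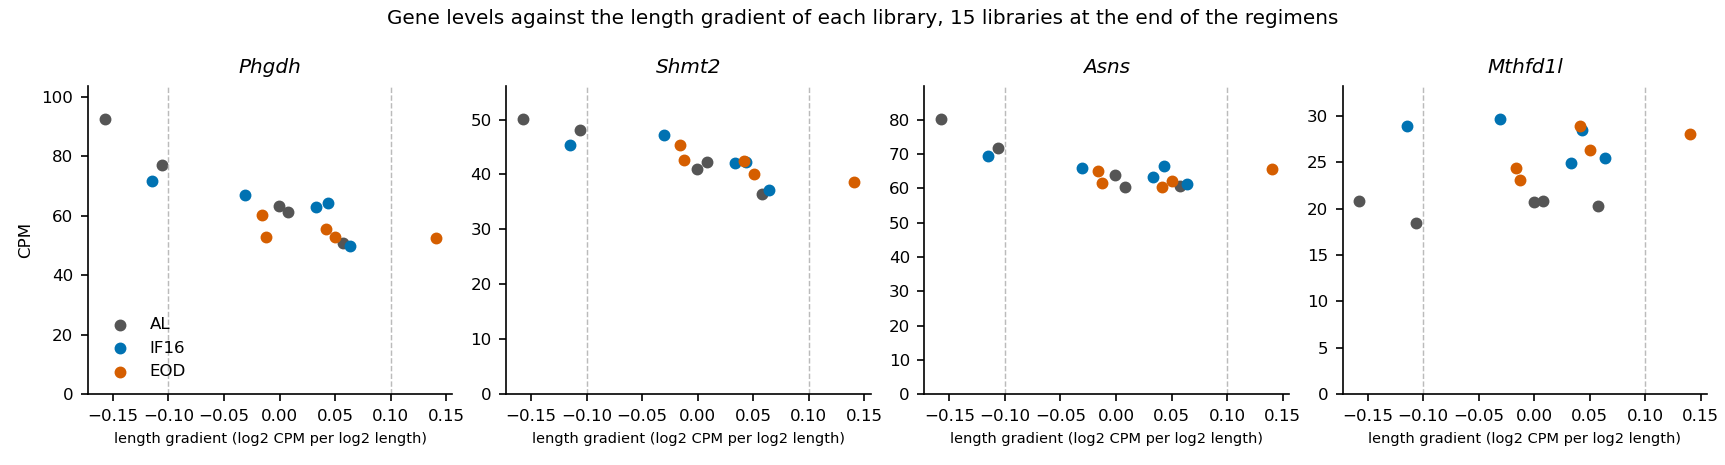
CPM of 4 genes (vertical axis) against the length gradient of each library (horizontal axis, log2 CPM per log2 gene length) for the 15 libraries at the end of the regimens, coloured by group, with dashed lines at 0.1 and -0.1. Phgdh, Shmt2 and Asns are lower where the gradient is higher (r of -0.83, -0.88 and -0.71 within groups), and every AL point of Mthfd1l lies below every fasted point.

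Of the 45 pairs among the 10 genes, 19 had r over 0.5 across the 15 regimen libraries, 13 across the 11 left without the 4 that stood apart, and 11 across the 15 refeeding libraries. The median r was 0.44, 0.28 and 0.25. Asns and Phgdh kept a high r in each set, at 0.89, 0.75 and 0.81. Phgdh and Shmt2 had r of 0.94 and 0.92 in the regimen libraries but 0.25 after refeeding. Phgdh and Psat1, consecutive enzymes of serine synthesis, had 0.67, 0.13 and 0.65. Shmt2 and Mthfd2 had 0.65 and 0.52 in the regimen libraries and -0.37 after refeeding. Ddit3 and Mthfd2 had 0.42 and 0.88 in the full regimen and refeeding sets. Mthfd1l had no r over 0.5 with any of the other 9 genes in these 3 sets, and its r with Atf4 was -0.48, -0.58 and 0.10. All pairs share library depth and composition, so these values are descriptions. The share of all gene pairs with r over 0.5 was not computed, so these counts do not set the 10 genes apart.

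**Figure D4:**
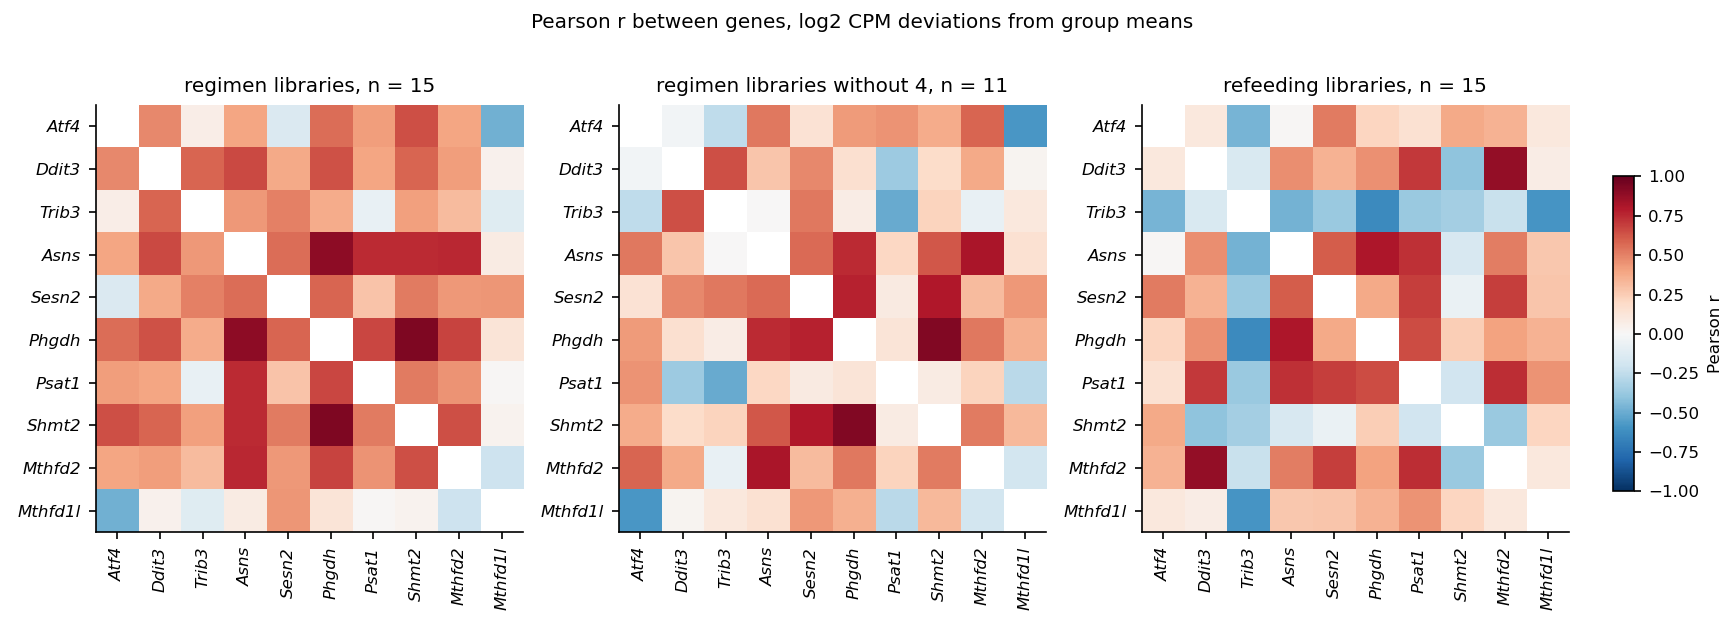
Pearson r between each pair of genes, as colour from -1 to 1, over the 15 regimen libraries, the 11 of them with a length gradient within 0.1, and the 15 refeeding libraries. Asns and Phgdh have r of at least 0.75 in all 3 panels, and no pair with Mthfd1l is above 0.5.

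Over all 30 libraries, the genes whose deviations from group means were most like those of a member were taken from 14238 genes. For Mthfd1l these were Cep250 (r = 0.72), the clock output factor Tef (r = 0.67) and Ube2o (r = 0.66), the lowest values among the 10 genes. For Asns they were Tufm, Pygb and Actr1a (r = 0.94, 0.93 and 0.93), and for Phgdh Apbb1, Sgta and Tpi1 (r = 0.94 each). For Shmt2 they were Slc25a22, Tbc1d17 and Aup1 (r = 0.92, 0.91 and 0.91). The genes most like Psat1 were Mobp, Mfsd2a and Plekhb1 (r = 0.84, 0.84 and 0.81), of which Mobp is one of the oligodendrocyte markers. Those of Atf4 were Psma2, Rpl7a and Rab9, those of Ddit3 Cep89, Taf15 and Aig1, and those of Sesn2 Mesdc1, Trim8 and Rnf10, with r from 0.81 to 0.85. Mthfd2 was followed by Htra1, Snx3 and Bcl2l1 (r = 0.80, 0.79 and 0.79). Trib3, with few counts, was followed by Cercam, Col20a1 and Grb7 (r = 0.75, 0.70 and 0.70).

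The pathways around the 10 genes were read from 8 lists of 131 genes, of which 130 passed the filter and Fgf21, a stress hormone made mainly in liver, did not. By edgeR, none of the 130 was called in any of the 8 fasting or refeeding comparisons. At an unadjusted p under 0.05 there were 16 in IF16 against AL (11 higher, 5 lower) and 20 in EOD against AL (17 higher, 3 lower), or 12.3% and 15.4%, beside 9.92% and 14.4% of all genes. By direction, 4.35% of all genes were higher and 5.57% lower in IF16, and 7.02% higher and 7.4% lower in EOD. The split of the lists by direction was not tested. IF16-R against AL-R, EOD-R against AL-R and EOD-R against IF16-R each had 13, or 10%, beside 9.58%, 8.5% and 9.75% of all genes. EOD against IF16 had 2, or 1.5%, beside 3.62%, and the IF16 and EOD interactions had 11 each, or 8.5%, beside 7.21% and 10.3%. With DESeq2, Gpt2 was called in IF16 against AL and Slc36a1, a proton-coupled amino acid carrier, in EOD-R against IF16-R, and none in the other 6. DESeq2 gave no adjusted p for some of the 130. It gave one for 128 in IF16-R against AL-R, 110 in EOD-R against AL-R, 86 in EOD-R against IF16-R and 128 in the EOD interaction. Limma-voom called none in any of the 8.

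Among kinases of eIF2, Eif2ak2 (PKR), which senses double-stranded RNA, had the smallest p in both fasted groups. It averaged 3.85 ± 0.735 CPM in AL, 5.21 ± 1.14 under IF16 and 5.19 ± 0.813 under EOD, with a log2 difference of 0.43 in both (edgeR adjusted p = 0.423 and 0.318). Gpt2, the mitochondrial alanine transaminase, was the closest to a call among the stress targets. It averaged 51.1 ± 3.48 CPM in AL, 65.1 ± 9.76 under IF16 and 64.3 ± 3.47 under EOD, with log2 differences of 0.35 (SE 0.0891, edgeR adjusted p = 0.242) and 0.33 (SE 0.0891, edgeR adjusted p = 0.221). All EOD libraries, from 60.5 CPM, were above all AL libraries, up to 56.4 CPM, and IF16 overlapped AL. Such a lack of overlap was found for 2.9% of all genes in EOD against AL. After refeeding the smallest p of this list was that of Atf5, a factor related to Atf4. Its log2 differences were -0.21 in IF16-R and -0.19 under EOD-R (edgeR adjusted p = 0.275 and 0.386).

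No amino acid transporter or sensor passed the threshold either. Slc38a2 (SNAT2), the neutral amino acid carrier induced by starvation, averaged 160.0 ± 17.6 CPM in AL and 208 ± 18.2 under EOD (log2 difference 0.38, SE 0.106, edgeR adjusted p = 0.236). These groups did not overlap, as for 2.9% of all genes. Slc38a3 (SNAT3), the glutamine carrier of astrocytes, differed by -0.26 in IF16 (edgeR adjusted p = 0.363). The lysosomal arginine sensor Slc38a9 differed by 0.34 in EOD (SE 0.0929, edgeR adjusted p = 0.232). Sesn1, a relative of Sesn2, differed by 0.16 in IF16 and by 0.17 in EOD-R (edgeR adjusted p = 0.363 and 0.3). In the refed groups the smallest p-values of these lists were those of the glycine transporter Slc6a9 (0.11 in IF16-R), the GTPase-activating protein Flcn (0.15 in IF16-R) and Slc1a5 (-0.38 in EOD-R), with adjusted p-values by edgeR of 0.35, 0.293 and 0.457.

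Other enzymes of serine, glycine, folate and methyl groups did not pass the threshold. Gcat, which makes glycine from threonine in mitochondria, differed by -0.37 under IF16 and by -0.34 under EOD (edgeR adjusted p = 0.368 and 0.314). Mat2a, which makes S-adenosylmethionine, differed by 0.18 in IF16. The methionine synthase reductase Mtrr differed by 0.16 in EOD without overlap, as 2.9% of all genes had none. Ahcy, which clears S-adenosylhomocysteine, had 30.7 ± 0.994 CPM in AL-R and 34.2 ± 0.982 under IF16-R (log2 difference 0.16, SE 0.042, edgeR adjusted p = 0.196). These groups did not overlap, as for 2.18% of all genes. In EOD-R the Ahcy difference was 0.10. The glycine cleavage genes Gldc and Gcsh differed by 0.08 in IF16-R and 0.09 in EOD-R.

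The aminoacyl-tRNA synthetases, which load tRNAs, had the narrowest range of log2 differences of the 8 lists in IF16 and in EOD. Lars differed by 0.11 in IF16, Iars by 0.15 in EOD, Rars by -0.08 in IF16-R and Mars by -0.10 in EOD-R, with adjusted p-values by edgeR of 0.502, 0.337, 0.62 and 0.334. Lars in IF16 and Mars in EOD-R did not overlap their controls, where 1.55% and 1.87% of all genes had no overlap. Across the 20 synthetases the log2 differences in IF16 ran from -0.15 to 0.11 and in EOD from -0.16 to 0.15. The list for ATF6 and XBP1, the other arms of the endoplasmic reticulum stress response, had medians of 0.02 in IF16 and 0.15 in EOD. Its smallest p-values were those of Pdia6 (-0.22 in IF16) and Edem1 (0.30 in EOD). After refeeding they were those of Pdia4 (0.27 in IF16-R) and Ern1 (-0.12 in EOD-R). Ppp1r15b, a subunit of the eIF2 phosphatase, differed by 0.11 in IF16-R and Impact, an inhibitor of GCN2, by 0.07 in EOD-R.

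**Figure D5:**
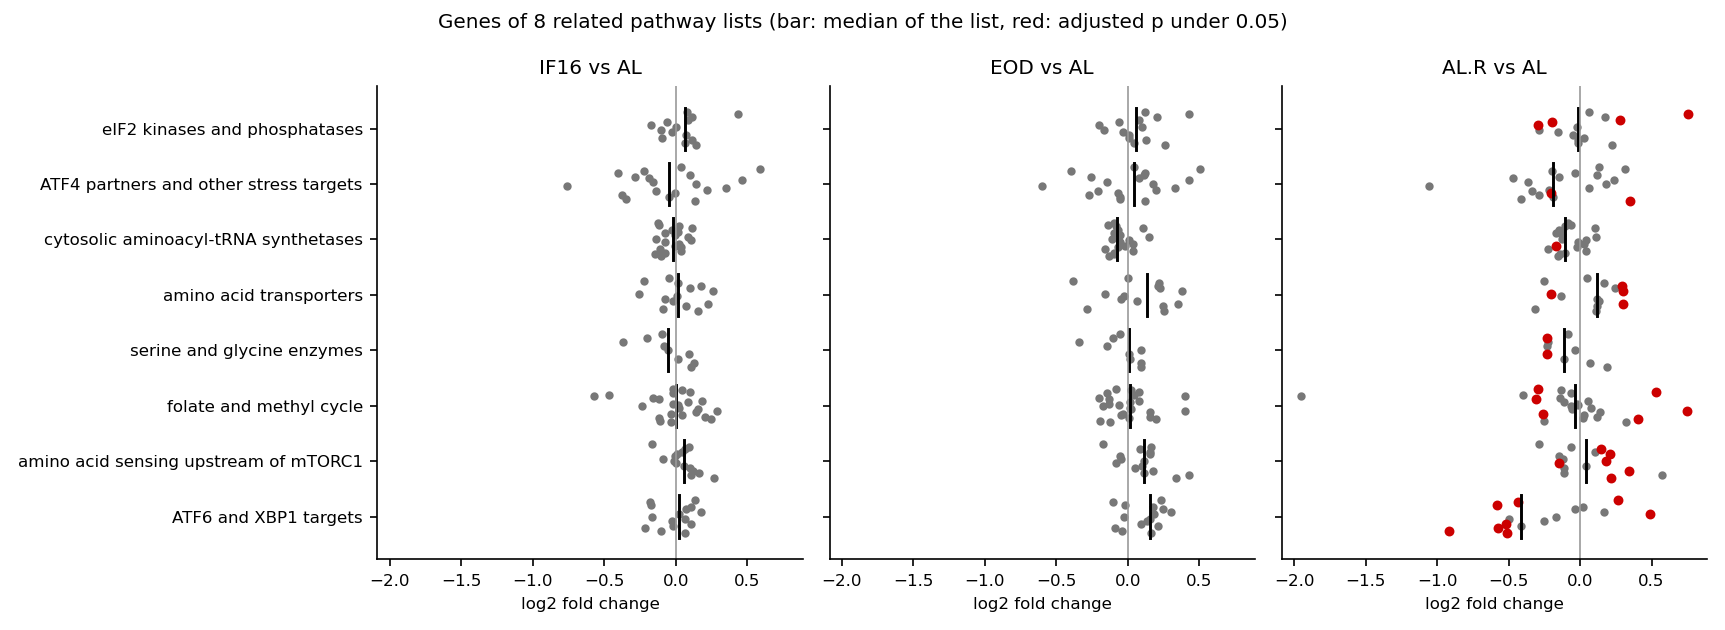
Log2 fold change of each gene (points) of 8 pathway lists in IF16 against AL, EOD against AL and AL-R against AL, with the median of each list (bar) and genes with an adjusted p under 0.05 in red. No point is red in the fasting comparisons, and 33 of 130 are red between the control groups. Among them are 8 genes of the list of ATF6 and XBP1 targets, 6 lower and 2 higher in AL-R.

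Between the control groups, 33 of the 130 pathway genes were called, 16 higher and 17 lower in AL-R. That share of 25.4% lies near the 23.9% of all genes. DESeq2 called 41 of the 128 to which it gave an adjusted p, and limma-voom called 35 of 130. Without the 4 libraries that stood apart only 1 of the 130, Aldh1l2, was called (log2 difference 0.35, edgeR adjusted p = 0.0421), where 2.37% of all genes were. All 33 are given here with their log2 differences in the full fit, and each had an edgeR adjusted p of 0.0485 or lower.

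The list of ATF6 and XBP1 targets, which also holds the sensors Ern1 and Atf6, had the lowest median, -0.41. Of its 15 genes, 6 fell: the chaperone cofactor Sdf2l1 (-0.92), Creld2 (-0.58), the disulfide isomerase Pdia6 (-0.58), the secreted factor Manf (-0.52), Xbp1 (-0.51) and calreticulin Calr (-0.43). The sensors Ern1 (0.49) and Atf6 (0.27) rose. Of the eIF2 genes, the kinases Eif2ak2 (0.75) and Eif2ak4 (GCN2, 0.28) rose, while Eif2b1 (-0.20) and Eif2b2 (-0.29), subunits of the exchange factor that recycles eIF2, fell. Of the stress targets, Vldlr (0.35) rose and the mitochondrial phosphoenolpyruvate carboxykinase Pck2 (-0.20) fell, and of the synthetases Qars (-0.17) fell.

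In the lists nearest to the one-carbon enzymes, Psph (-0.23), which follows Psat1 in serine synthesis, and Cbs (-0.23), which passes serine into cystathionine, fell. Folate and methyl cycle genes went both ways. Methionine synthase Mtr (0.75), the mitochondrial formyltetrahydrofolate dehydrogenase Aldh1l2 (0.53) and the mitochondrial folate carrier Slc25a32 (0.41) rose. Ggh (-0.31), Ahcy (-0.29) and Sardh (-0.26) fell. Among transporters, Slc38a2 (0.30), the arginine carrier Slc7a1 (0.30) and Slc36a4 (0.30) rose and Slc38a3 (-0.20) fell. Among the amino acid sensing genes, Rragd (0.34), Slc38a9 (0.22), Mtor (0.21), Rptor (0.19) and Depdc5 (0.15) rose and Rraga (-0.15) fell.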

How the data were processed

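The authors deposited read counts per gene, whole numbers, in one table for the 15 libraries at the end of the regimens and another for the 15 after refeeding, and FPKM values per library. These FPKM equal the deposited counts per gene length and library total (largest relative difference 4.97e-12 for genes with at least 10 counts). The submitters' processing notes name STAR 2.5, HTSeq 0.6.1, DESeq2 and mm10. The annotation release and strand handling are not given in the sources used here. Another 12 samples, chromatin immunoprecipitation and inputs, were not analysed here. No deposited column was left without a sample.

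For tests of the counts, edgeR 4.0.16 was run under R 4.3.3 with its quasi-likelihood model (TMM, filterByExpr by group, Benjamini-Hochberg over all genes tested, threshold 0.05), with 1 fit per table and 1 of all 30 libraries. The scripts were tested on simulated data. Alternatives were DESeq2 1.42.0, voom of limma 3.58.1, other scalings and filters, covariates and left-out libraries. Standard errors came from the F statistic. The labels do not say that each library came from its own mouse, so p-values measure the spread between libraries. The lowest counts of a member were those of Trib3, 29 to 68 per library, where counting error is a large part of that spread. No pair of libraries in a group agreed within sampling noise (chi-square per degree of freedom of at least 4.24).

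The 10 genes and the lists were chosen with earlier results of these data known. Named from each pathway list were all genes called in any comparison and the gene with the smallest p in IF16 and EOD against AL and in IF16-R and EOD-R against AL-R. Genes most like a member were the 3 with the highest r over the 30 libraries, among genes with a mean of at least 1 CPM.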

Additional observations from a re-analysis of the deposited data

Results flagged for a closer look

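Of 60 sets of 5 libraries (10 genes in 6 groups), 4 had a library far from the rest by Dixon's ratio, and chance gives about 1 in 20 sets. Ddit3 was at 53.2 CPM in IF16 replicate 1, above the next library at 39.3, and at 37.7 CPM in EOD-R replicate 5, above the next at 30.2. Psat1 was at 107 CPM in AL replicate 4, above the next at 88.4. Mthfd1l was at 18.5 CPM in AL replicate 5, below the next at 20.3. IF16 replicate 1, AL replicate 4 and AL replicate 5 are among the 4 libraries with a length gradient beyond 0.1.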

How the results depend on the processing

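The number of the 10 genes called in IF16 against AL, 1 by edgeR, was 0 with limma-voom, upper-quartile scaling, the choroid plexus marker mean as a covariate, only the 2 groups compared, or without the 4 libraries with a length gradient beyond 0.1 (the last chosen after seeing the data), and 0 in each fit without a library (0 to 0). It was 1 with DESeq2, RLE scaling, both other filters and the length gradient as a covariate. In EOD against AL it was 1 with DESeq2 (Mthfd1l) in place of 0. In AL-R against AL, 4 by edgeR, it was 3 with limma-voom and with no low-count filter (Asns lost), 2 with the choroid plexus covariate (Asns and Phgdh lost, at -0.16 and -0.35 in place of -0.16 and -0.38), 0 without the 4 libraries, and 1 to 4 in the fits without a library. In the 6 other comparisons it was 0 under every alternative run, including each library left out. The causes were not tested. Of the 90 differences (10 genes, 9 comparisons), 78 had an unadjusted p of 0.05 or more by edgeR. None of these 78 was called under an alternative, and 46 changed sign under at least one. The other 12 kept their sign in all. Without AL replicate 4, Phgdh in EOD against AL was -0.20 in place of -0.33.

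The replicate block, the labels' replicate number as a term, gave 0 genes called in IF16 against AL, 0 in EOD against AL and 0 in AL-R against AL. Same-numbered pairs correlated over 0.1 in 4 of 15 cases among regimen libraries (median r -0.14) and in 13 of 15 among refeeding libraries (median r 0.17, against -0.065 for other pairs). Not every pair passed, and the labels tie no number to a shared animal or day, so the block was not used. Over all genes it raised the calls from 28 to 95 in IF16-R against AL-R, from 7 to 45 in EOD-R against AL-R and from 3 to 40 in EOD-R against IF16-R, and gave 82 in place of 4030 in AL-R against AL.

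Over all genes, counts moved by over 1.5 times with the tool. DESeq2 called 94 genes in place of 8 in IF16 against AL, 133 in place of 11 in EOD against AL, 105 in place of 28, 87 in place of 7 and 123 in place of 3 in the refed comparisons, and 29 in place of 8 and 14 in place of 2 for the interactions. The gradient covariate gave 62 in IF16 against AL and 0 in all 3 refed comparisons. In IF16-R against AL-R the gradients of the groups did not overlap. Limma-voom gave 5 in IF16 against AL and 5 in EOD against AL. Leaving out 1 library gave 0 (IF16-R replicate 3) to 65 (IF16-R replicate 1) in IF16-R against AL-R, and 830 (AL replicate 4) to 6173 (AL replicate 1) in AL-R against AL.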
